A study of Mus musculus with 16 samples.

Results

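The genes of the tumour necrosis factor (TNF) and interleukin-1 (IL-1) cytokine systems were followed in dorsal root ganglia (DRGs), the clusters of sensory neurons beside the spinal cord. The set was chosen by name and holds 10 of the 52636 genes in the count tables: the ligands Tnf, Il1a and Il1b, the receptor antagonist Il1rn, the decoy receptor Il1r2, the receptors Tnfrsf1a, Tnfrsf1b, Il1r1 and Il1rap, and the protease Adam17. All 10 were found by their Ensembl identifiers. The DRGs of 16 male C57Bl6/J mice aged 3 to 4 months were sequenced, lumbar levels 3 to 6, with 1 mouse per library and 4 mice in each group. Sham-Saline mice had sham surgery and saline, SNI-Saline mice had spared nerve injury (SNI) and saline, Sham-DMI mice had sham surgery and desipramine (DMI), and SNI-DMI mice had both SNI and DMI. SNI is a lasting injury of branches of the sciatic nerve, here on the left side, and DMI is a tricyclic antidepressant that blocks noradrenaline reuptake. DMI was injected intraperitoneally at 15 mg/kg, 2 times a day for 3 weeks, and the mice without DMI received saline on the same schedule. Treatment began 4 weeks after surgery by the results text of the study, whereas its methods section gives the same figure in months. All mice were therefore operated and injected, and the ganglia held every cell type of the tissue, so that fewer cells of a type and less RNA per cell cannot be told apart.

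TNF acts through TNFR1, encoded by Tnfrsf1a and present on most cells, and TNFR2, encoded by Tnfrsf1b and found mainly on immune, glial and endothelial cells. IL-1 alpha and IL-1 beta bind the receptor chain Il1r1, which signals only together with the accessory chain Il1rap. The system has its own brakes: the product of Il1rn occupies the receptor without signalling, and Il1r2 binds IL-1 but lacks a signalling domain. Adam17, also called TACE, cuts TNF and both TNF receptors from the cell surface. In sensory ganglia both cytokines are known to be made by macrophages, glia and neurons and to sensitise nociceptors after nerve damage.

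After nerve injury in saline-treated mice, Tnfrsf1b was the member that passed the test, with 10.9 ± 1.1 CPM (counts per 1000000 counts of the scaled library) against 8.4 ± 0.416 in sham mice (SD, n = 4 each). With DMI in sham-operated mice, Il1rap was the member that passed, at 8.78 ± 1.59 CPM against 12 ± 0.468. The first call was lost without any 1 of 4 of the 8 libraries compared (adjusted p = 0.101 to 0.15 in edgeR), and both were lost with GC and length trends removed from the counts (adjusted p = 0.113 and 0.273 in edgeR). The ligands were present at 0 to 44 counts per library and passed in no comparison. A member passed when its adjusted p was under 0.1 in edgeR's quasi-likelihood test across 21371 genes. By that rule 1 of the 9 members tested passed with injury under saline, where 12.0% of all genes tested did, and 1 of 9 passed with DMI in sham mice, where 23.4% of all genes did. Neither count is above the share of all genes, so neither sets the gene set apart.

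Reads on genes ran from 41194238 to 73920332 per library, so that a gene with no count in a library is limited to 0.0406 to 0.0728 CPM there, counting error only. The labels name spinal cord as tissue and dorsal root ganglia as cell type. The 8 sensory neuron markers, among them Avil, Scn10a and Prph, summed to 6480 to 7980 CPM in every library, whereas 4 oligodendrocyte markers summed to 2.25 to 25.6 CPM and 3 motor neuron markers to 1.75 to 4.94 CPM. The sample numbers in the titles run from 17 to 24 for the DMI mice and from 33 to 40 for the saline mice. What these numbers record is not stated, and if they mark the order of handling, that order and DMI cannot be told apart.

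The promoters of the 3 ligands are shown because they share a feature that the other members lack. Each line gives the 250 bases before a RefSeq start site on GRCm38.p6, 5′ to 3′ on the strand of the gene, with the letters TATAAA in capitals where they occur on either strand. Tnfrsf1b and Il1rap are shown beside them as the members that passed a test.
Tnf promoter, chr17:35202008-35202257, minus strand: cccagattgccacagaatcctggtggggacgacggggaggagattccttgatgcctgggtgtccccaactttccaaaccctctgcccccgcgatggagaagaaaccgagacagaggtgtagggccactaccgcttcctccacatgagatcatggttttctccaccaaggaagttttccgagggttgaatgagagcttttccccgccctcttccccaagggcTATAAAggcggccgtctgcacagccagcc
Il1a promoter, chr2:129309973-129310222, minus strand: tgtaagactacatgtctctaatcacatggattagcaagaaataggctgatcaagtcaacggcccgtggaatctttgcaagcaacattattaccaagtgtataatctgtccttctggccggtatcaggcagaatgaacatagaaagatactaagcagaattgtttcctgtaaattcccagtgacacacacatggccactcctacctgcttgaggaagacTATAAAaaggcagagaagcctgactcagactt
Il1b promoter, chr2:129371140-129371389, minus strand: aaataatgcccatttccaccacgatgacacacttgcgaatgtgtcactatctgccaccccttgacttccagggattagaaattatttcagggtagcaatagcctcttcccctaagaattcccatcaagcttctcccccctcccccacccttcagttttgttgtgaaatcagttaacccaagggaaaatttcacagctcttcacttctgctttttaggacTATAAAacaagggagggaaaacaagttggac
Tnfrsf1b promoter, chr4:145246871-145247120, minus strand: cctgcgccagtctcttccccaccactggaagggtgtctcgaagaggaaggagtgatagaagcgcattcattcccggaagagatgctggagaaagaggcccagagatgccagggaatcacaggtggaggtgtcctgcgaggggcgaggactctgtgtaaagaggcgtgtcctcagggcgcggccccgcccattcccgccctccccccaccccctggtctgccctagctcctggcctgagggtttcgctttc
Il1rap promoter, chr16:26581455-26581704, plus strand: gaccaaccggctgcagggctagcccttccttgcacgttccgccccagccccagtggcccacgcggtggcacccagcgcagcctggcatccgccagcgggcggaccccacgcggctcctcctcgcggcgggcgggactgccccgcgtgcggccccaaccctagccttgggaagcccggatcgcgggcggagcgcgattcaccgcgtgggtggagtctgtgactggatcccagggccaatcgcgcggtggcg
TATAAA lay 29 bases before the start in Tnf, 32 in Il1a and 31 in Il1b, counted to the first base of the match. It was present in 3 of 3 ligand promoters and in 0 of the 10 listed promoters of the other members, of which Il1rn has several. Among all 32851 promoters of this length, 12.4% held it. The ligand promoters were 42.4% to 57.6% G and C, those of the other members ranged from 46.8% to 74.4%, and the median of all promoters was 52.4%. These matches describe letters in a window and were not tested for binding.

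The members spanned a wide range of levels, compared here as CPM per kilobase of exon. Tnfrsf1a was highest at 11.7 ± 1.33 (SD over the 16 libraries), followed by Adam17 at 4 ± 0.461, Tnfrsf1b at 2.45 ± 0.408, Il1r1 at 2.1 ± 0.204 and Il1rap at 0.93 ± 0.157. The decoy Il1r2 stood at 0.365 ± 0.0906, and the ligands and antagonist closed the order, with Il1b at 0.162 ± 0.113, Tnf at 0.0674 ± 0.0516, Il1rn at 0.043 ± 0.0242 and Il1a at 0.0383 ± 0.0224. The signalling receptors and the protease were thus measured far above the ligands. The ranges of the decoy Il1r2 and of Il1b overlapped, with Il1r2 higher in 15 of 16 libraries. The ranges of Tnfrsf1a and Adam17 did not overlap, nor did those of Il1r1 and Il1rap, or of Il1rap and Il1r2. Adam17 exceeded Tnfrsf1b in 16 of 16 libraries and Tnfrsf1b exceeded Il1r1 in 14 of 16 libraries with overlapping ranges, and the lowest 4 members overlapped with their neighbours, Il1rn exceeding Il1a in 8 of 16 libraries.

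**Figure D1:**
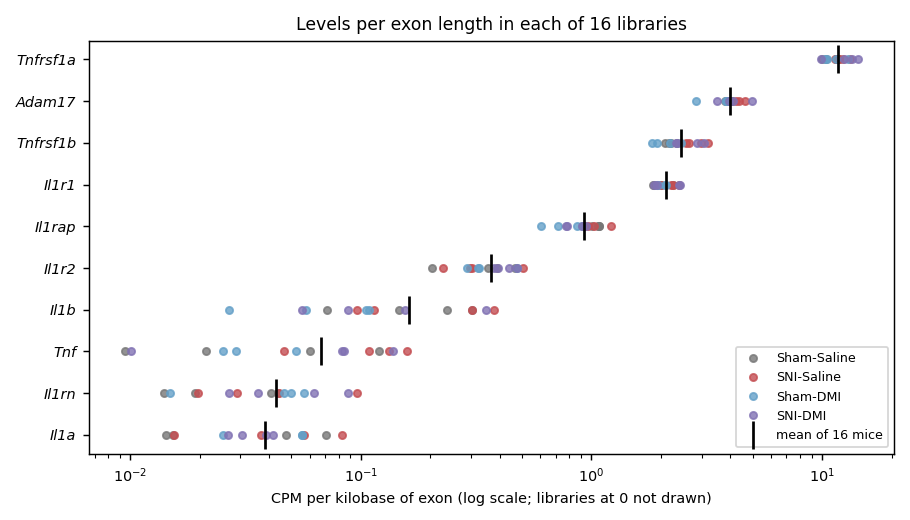
CPM per kilobase of exon (x axis, log scale) of the 10 members, ordered by mean, with 1 dot per library coloured by group and a black tick for the mean of 16 mice. Tnfrsf1a lies at 9.92 to 14.3 in every library, whereas the ligands lie below 0.4 and spread widely.

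Tnf encodes the founding TNF ligand (chr17:35199381-35202007, minus strand, GRCm38). It reached 0.0348, 0.0988, 0.0156 and 0.196 CPM in the Sham-Saline mice and 0.217, 0.261, 0.177 and 0.0764 in the SNI-Saline mice. These are 1 to 13 and 5 to 16 counts, and the groups overlapped through mouse 4 of each. Under DMI the sham mice gave 0.0854, 0.0412, 0 and 0.0473 CPM and the injured mice 0.227, 0.138, 0.0165 and 0.136. The library at 0 allows up to 0.0728 CPM. The fitted log2 fold change was 1.03 with injury under saline (2.04-fold, 95% interval -0.36 to 2.43, adjusted p = 0.376 in edgeR) and 1.44 with injury under DMI (2.71-fold, -0.19 to 3.06, adjusted p = 0.473). These comparisons use different mice and neither passed.

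Il1b encodes IL-1 beta, the form released after inflammasome cleavage (chr2:129364570-129371139, minus strand). The Sham-Saline mice had 0.452, 0.579, 0.28 and 0.136 CPM and the SNI-Saline mice 0.217, 0.717, 0.578 and 0.183, with full overlap. The Sham-DMI mice had 0.0512, 0.206, 0.2 and 0.11 CPM, and the SNI-DMI mice 0.662, 0.168, 0.297 and 0.106. In Sham-DMI every mouse was below 3 of the 4 Sham-Saline mice, and Sham-Saline mouse 4 overlapped with them. The fitted change with DMI in sham mice was -1.35 (log2, SE 0.623, adjusted p = 0.15 in edgeR and 0.101 in DESeq2), and it did not pass. Without that mouse it was -1.63 with an adjusted p of 0.0969 in the same test. The transcript Il1bos lies on the opposite strand, and since the use of strand in counting is not stated, reads of the pair cannot be told apart.

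Il1a encodes IL-1 alpha, which is active without cleavage (chr2:129299610-129309972, minus strand, with Gm14023 on the opposite strand overlapping its exons). It had 0 to 10 counts per library, too few for the test across genes. Under saline the sham mice gave 0.139, 0.0282, 0.0935 and 0.0302 CPM and the injured mice 0.0725, 0.163, 0.112 and 0.0306. Under DMI the sham mice gave 0, 0.11, 0.0499 and 0.11 CPM and the injured mice 0.0523, 0.0766, 0.0825 and 0.0603. All groups overlapped. Its log2 CPM was compared by an exact permutation test, two-sided, of 4 mice against 4. The exact p was 0.6 with injury under saline and 0.6 to 0.914 in the other comparisons, where 0.0286 is the smallest p this design allows. After Benjamini-Hochberg adjustment over the 4 comparisons all were 0.914.

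Il1rn, the receptor antagonist (chr2:24336853-24351494, plus strand), had 0.243, 0.226, 0.0779 and 0.106 CPM in the sham mice and 0.109, 0.244, 0.161 and 0.535 in the injured mice under saline. Under DMI it had 0.256, 0.0823, 0.275 and 0.315 CPM in the sham mice and 0.488, 0.199, 0.148 and 0.347 in the injured mice. Mouse 4 of SNI-Saline stood highest, and the groups overlapped in every comparison. The fitted log2 fold changes were 0.7 with injury under saline (95% interval -0.44 to 1.84, and 0.082 without that mouse), 0.48 with DMI in sham mice (-0.69 to 1.65) and 0.15 with DMI after injury (-0.93 to 1.23). Il1r2, the decoy receptor (chr1:40074079-40125231, plus strand), ran from 0.39 to 0.961 CPM over the 16 mice. Its mean under saline was 0.674 ± 0.209 in sham and 0.635 ± 0.227 in injured mice, and under DMI it was 0.672 ± 0.159 in sham and 0.804 ± 0.0832 in injured mice (SD, n = 4 each). The SNI-DMI mice were the closest to each other, and no comparison of Il1r2 passed.

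**Figure D2:**
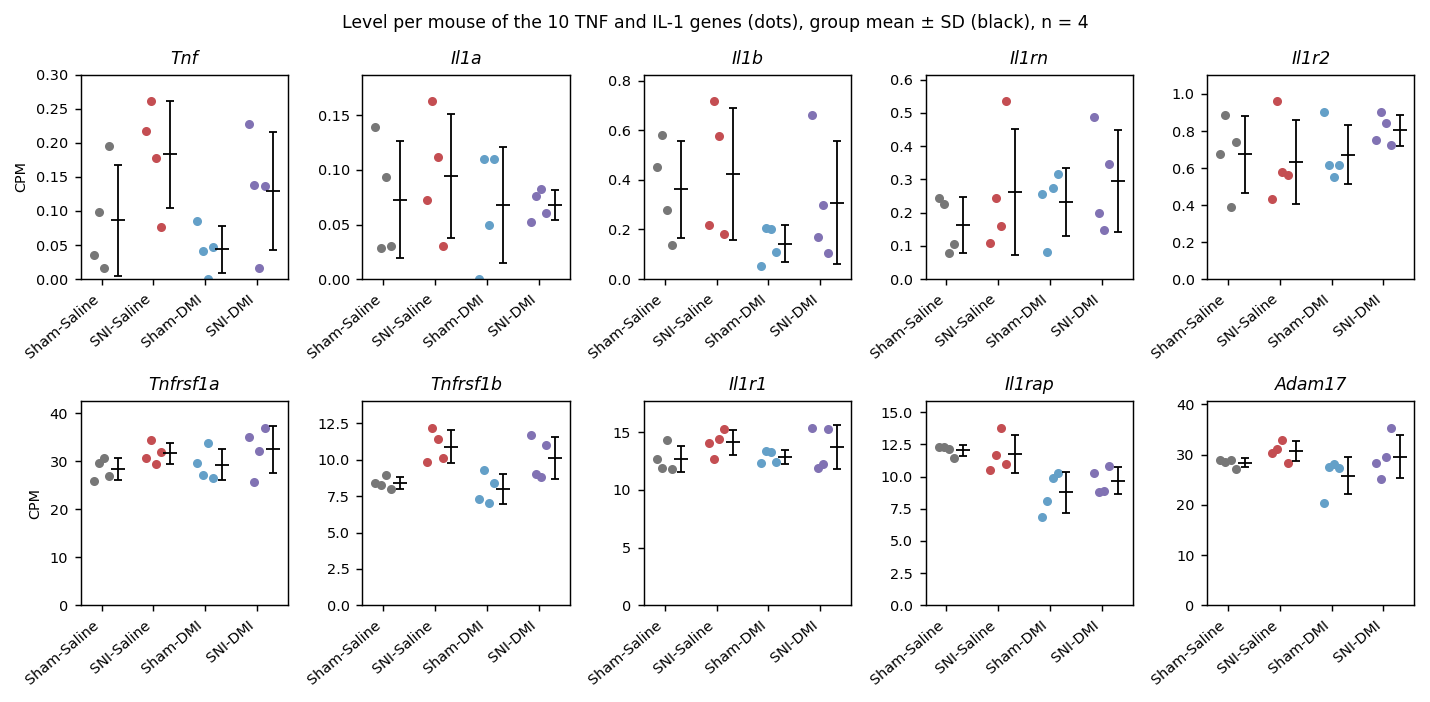
CPM of each member (y axes from 0, each with its own scale) in the 4 groups, 1 dot per mouse, with the group mean ± SD in black (n = 4). Tnfrsf1b of SNI-Saline mice lies at 9.82 to 12.2, above all Sham-Saline mice, and Il1rap of Sham-DMI mice at 6.87 to 10.3, below all Sham-Saline mice.

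Tnfrsf1a, the receptor with a death domain (chr6:125349362-125362484, plus strand), was the most abundant member. Under saline it had 25.9, 29.7, 30.7 and 27 CPM in sham and 30.6, 34.4, 29.5 and 31.9 in injured mice. Under DMI it had 29.7, 27.2, 33.7 and 26.6 CPM in sham and 35, 25.7, 32.1 and 37 in injured mice, and the groups overlapped in both pairs. Its log2 fold changes were 0.16 with injury under saline (95% interval -0.05 to 0.36) and 0.15 with injury under DMI (-0.06 to 0.36), and 0.05 and 0.04 with DMI in sham and injured mice. None passed, and the intervals leave out changes above 0.36 in either injury comparison.

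Tnfrsf1b, the receptor without a death domain (chr4:145213463-145246870, minus strand), had 8.42, 8.26, 8.96 and 7.97 CPM in sham and 9.82, 12.2, 11.4 and 10.1 in injured mice under saline. All 4 injured mice were above all 4 sham mice. The log2 fold change was 0.37 (1.29-fold, SE 0.111, adjusted p = 0.0549 in edgeR). The call was lost without SNI-Saline mouse 2 (0.32, adjusted p = 0.15 in edgeR), without Sham-Saline mouse 1, 3 or 4 (0.38, 0.42 and 0.35, adjusted p = 0.102, 0.101 and 0.124) and with GC and length trends removed (0.32, adjusted p = 0.113). Under DMI the sham mice had 7.31, 9.29, 7.02 and 8.37 CPM and the injured mice 11.7, 9, 8.84 and 11, so that sham mouse 2 lay above 2 injured mice. There the log2 fold change was 0.34 (1.26-fold, SE 0.111) and did not pass, with an adjusted p of 0.24 in edgeR and 0.107 in DESeq2. The injury differences of both pairs of groups come from separate mice. The log2 fold change of Tnfrsf1b with DMI was -0.1 in injured mice (95% interval -0.33 to 0.13) and -0.07 in sham mice (-0.3 to 0.17), and neither passed.

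Il1r1, the signalling IL-1 receptor (chr1:40225080-40317257, plus strand), had 12.7, 11.9, 14.3 and 11.8 CPM in sham and 14.1, 12.7, 14.4 and 15.3 in injured mice under saline. Under DMI it had 12.3, 13.4, 13.3 and 12.4 CPM in sham and 15.4, 11.9, 12.2 and 15.3 in injured mice, again with overlap. Its log2 fold changes ran from -0.04 with DMI after injury (95% interval -0.24 to 0.16) to 0.16 with injury under saline (-0.05 to 0.36), and none passed.

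Il1rap, the accessory chain shared by the IL-1 and IL-33 receptors (chr16:26581704-26730117, plus strand), had 12.3, 12.3, 12.1 and 11.4 CPM in Sham-Saline and 6.87, 8.11, 9.86 and 10.3 in Sham-DMI mice. All 4 DMI mice were below all 4 saline mice. The log2 fold change was -0.46 (0.729-fold, SE 0.119, adjusted p = 0.0152 in edgeR). After injury, saline mice had 10.5, 11.7, 13.8 and 11 CPM and DMI mice 10.3, 8.77, 8.86 and 10.8, with overlap through DMI mouse 4 alone. That log2 fold change was -0.28 (0.823-fold, SE 0.118) and did not pass (adjusted p = 0.214 in edgeR and 0.126 in DESeq2). With injury its log2 fold change was -0.03 under saline (95% interval -0.28 to 0.21) and 0.14 under DMI (-0.11 to 0.39). The exons of Il1rap sum to 11360 bases, longer than in 95.2% of the genes tested. Its longest transcript is 42.1% G and C, which 13.0% of the genes are below. With smooth trends over GC content and length removed from the counts, the change with DMI in sham mice was -0.18 and did not pass (adjusted p = 0.273 in edgeR). The opposite-strand transcript Gm20319 overlaps its exons, so reads of that pair cannot be told apart either.

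Adam17 (chr12:21323509-21373632, minus strand, with exon overlap by Iah1 on the opposite strand) had 29, 28.6, 28.9 and 27.2 CPM in sham and 30.4, 31.2, 33 and 28.3 in injured mice under saline. With DMI it had 20.3, 27.5, 28.1 and 27.4 CPM in sham and 28.3, 25.1, 29.5 and 35.4 in injured mice. Sham-DMI mouse 1 was the lowest of all 16. The log2 fold change with injury was 0.11 under saline (95% interval -0.1 to 0.32) and 0.2 under DMI (-0.01 to 0.41, adjusted p = 0.45 in edgeR), and with DMI it was -0.14 in sham mice (-0.35 to 0.07) and -0.05 in injured mice (-0.26 to 0.15).

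Across the members, injury under saline gave a positive log2 fold change in 7 of 9 tested and a median of 0.16, where the median of all genes was -0.001. Injury under DMI gave a positive value in 9 of 9 and a median of 0.25, against 0.001 over all genes, but 0 of 9 passed, beside 0.402% of all genes. At an unadjusted p under 0.05, 1 member was past it in that comparison (Tnfrsf1b), beside 12.1% of all genes, and DESeq2 called 0. Groups without overlap were seen in 1 of the 9 with injury under saline, where 15.4% of genes had them, and in 0 with injury under DMI, where 5.04% had them.

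With DMI after injury, 0 of 9 members passed, beside 2.93% of all genes. Il1rap was the 1 member with an unadjusted p under 0.05, beside 18.5% of all genes, and DESeq2 called 0 members. Groups without overlap were seen in 0 of the 9, where 13.3% of genes had them. Of the 9 members 6 had negative values, with a median of -0.05 against -0.005 over all genes. With DMI in sham mice the median was -0.07 against -0.021, again with 6 of 9 negative. Il1rap and Il1b were the 2 members past the looser rule of an unadjusted p under 0.05 and a log2 fold change of -0.32 or less, which 7.57% of all genes met. Groups without overlap were seen in 1 of the 9, Il1rap, where 17.1% of genes had them. The comparison of DMI after injury shares the SNI-Saline mice, and that of DMI in sham mice the Sham-Saline mice, with the injury comparison under saline, so the signs of these comparisons are not independent.

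The DMI effects in injured and sham mice were compared with each other by the interaction term. By edgeR 0 of 9 members passed, beside 0% of all genes, and 0 members had an unadjusted p under 0.05, beside 7.92% of all genes. DESeq2 called 0 members. The difference was 0.18 for Il1rap (injured minus sham, log2, 95% interval -0.18 to 0.53), 0.87 for Il1b (-0.89 to 2.64) and -0.03 for Tnfrsf1b (-0.36 to 0.3). The same term compares the injury effects under DMI and saline, so the 0.37 and 0.34 of Tnfrsf1b did not differ detectably.

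**Figure D3:**
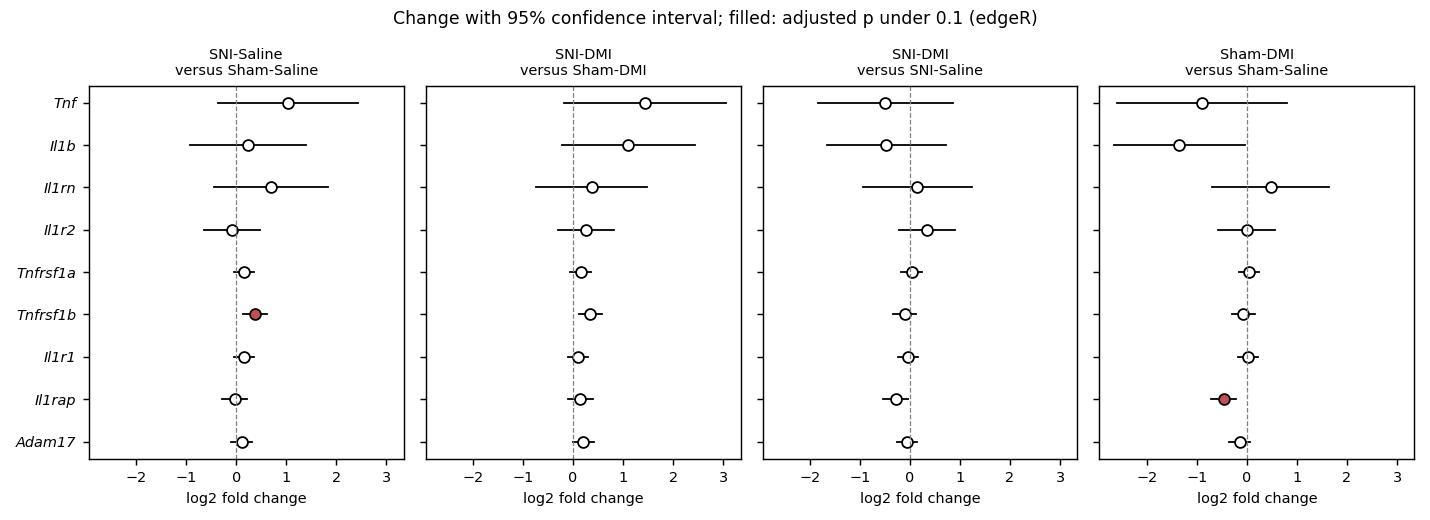
Log2 fold change (x axis) of the 9 members tested in 4 comparisons, with 95% confidence intervals as lines; filled dots passed an adjusted p under 0.1. Tnfrsf1b is filled at 0.37 with injury under saline and Il1rap at -0.46 with DMI in sham mice, and the intervals of Tnf, Il1b and Il1rn are several times as wide as those of the receptors.

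Markers of macrophages, which carry TNFR2, were higher beside Tnfrsf1b in the injured mice under saline. The summed level of 14 macrophage genes was 162 to 189 CPM in sham and 215 to 407 in injured mice under saline, and 121 to 178 in sham and 166 to 344 in injured mice under DMI. Of these genes 10 passed as higher with injury under saline, among them Trem2, Ctss and Cd68, where 5.85% of all genes did. Cd163 went the other way, with means of 5.45 CPM in sham and 4.43 in injured mice under saline. With injury under DMI 0 of the 14 passed in edgeR, and 11 met the looser rule of an unadjusted p under 0.05 and a log2 fold change of at least 0.32, which 4.07% of all genes met. None of the 14 was at 0 in all 4 mice of a group. The SNI-Saline mouse with the highest Tnfrsf1b, 12.2 CPM, also had the highest macrophage sum, 407 CPM. The call was lost without that mouse, SNI-Saline mouse 2, and also without Sham-Saline mouse 1, 3 or 4, as given above. The macrophage sums of those 3 sham mice were 162, 169 and 189 CPM. Sham-DMI mouse 2 had the lowest macrophage sum of all mice, 121 CPM, beside the highest Tnfrsf1b of its group, 9.29 CPM. Markers of injured neurons were also higher with injury under saline, and 5 of 6 genes passed as higher. Their sum was 31.8 to 43 CPM in sham and 166 to 190 in injured mice. The part of macrophages or injured neurons in the result was not tested.

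Neutrophil markers moved with DMI. The sum of 11 genes was 13.9 to 43.5 CPM with saline and 6.02 to 18.1 with DMI in sham mice, and 18.7 to 57.3 with saline and 6.29 to 15.3 with DMI in injured mice. Of the 10 tested, 8 passed as lower with DMI in sham mice, among them S100a8 and Retnlg, where 11.9% of all genes did. After injury 2 passed as lower with DMI, where 344 of 21371 genes did. An unadjusted p under 0.05 and a log2 fold change of -0.32 or less were met by 9 of the 10 in each comparison. In sham mice 7.57% of all genes met that rule. The median log2 fold change of the 10 was -1.58 in sham and -1.4 in injured mice. None of the 11 was at 0 in all 4 mice of a group. Il1b, which neutrophils also make, had 0.0512 to 0.206 CPM in the Sham-DMI mice and 0.136 to 0.579 in the Sham-Saline mice. Sham-Saline mouse 4 had the lowest Il1b of its group beside a neutrophil sum of 42.7 CPM, and SNI-DMI mouse 1 had 0.662 CPM of Il1b beside a sum of 14.3 CPM. Monocyte, astrocyte and endothelial lists also held genes that passed as lower with DMI in sham mice, where 11.9% of all genes did. So did 1 of 14 macrophage, 1 of 8 sensory neuron, 1 of 5 satellite glia, 1 of 3 B cell and 1 of 1 motor neuron genes tested. In the same comparison 2 sensory neuron genes and 1 satellite glia gene passed as higher. The sum of 4 monocyte genes was 6.37 to 8.29 CPM with saline and 4.39 to 5.31 with DMI, with 2 of 4 passing as lower, and that of 4 astrocyte genes was 35.7 to 40.4 and 26.9 to 35.1 CPM, again with 2 of 4 passing as lower. Of 7 endothelial genes, with sums of 98.4 to 136 and 77.8 to 98.6 CPM, 2 passed as lower. The sum of 6 genes of injured neurons was 31.8 to 43 CPM with saline and 47.2 to 75.8 with DMI, and 4 of the 6, Atf3, Sprr1a, Npy and Ecel1, passed as higher, where 11.6% of all genes did. None of these markers was at 0 in all 4 mice of a group. The part of any of these cell types in the Il1b and Il1rap values was not tested.

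**Figure D4:**
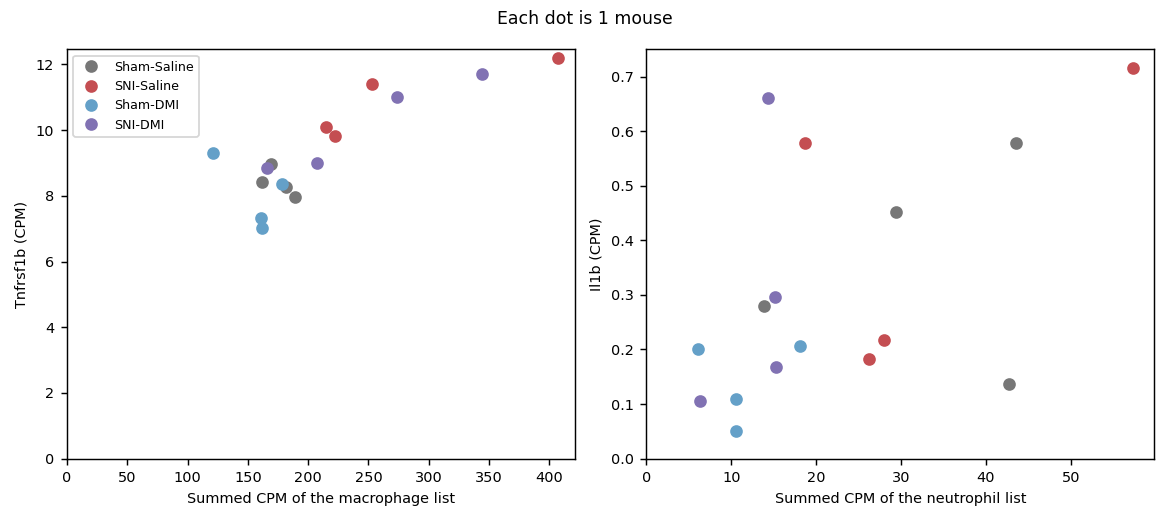
Left, Tnfrsf1b (y axis, CPM) against the summed CPM of 14 macrophage genes, and right, Il1b against the summed CPM of 11 neutrophil genes, with 1 dot per mouse coloured by group. Tnfrsf1b is highest, at 12.2 CPM, in the mouse with the highest macrophage sum. In the mouse with the lowest macrophage sum, 121 CPM, Tnfrsf1b is 9.29 CPM, the highest of the Sham-DMI mice. Il1b ranges from 0.106 to 0.662 CPM among the SNI-DMI mice, whose neutrophil sums all lie at or below 15.3 CPM.

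**Figure D5:**
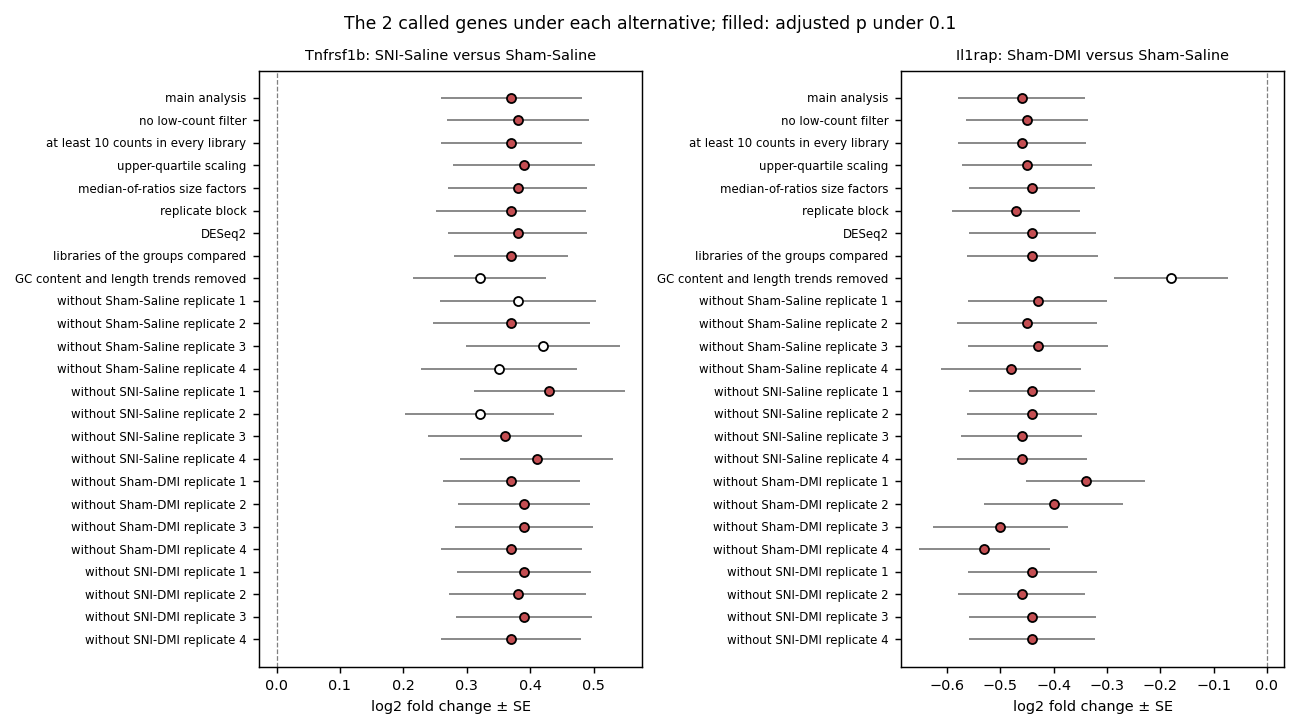
Log2 fold change ± SE (x axis) of Tnfrsf1b with injury under saline (left) and of Il1rap with DMI in sham mice (right) in the main analysis, under 8 alternatives and with each of the 16 libraries left out; filled dots have an adjusted p under 0.1. Tnfrsf1b stays between 0.32 and 0.43 and loses its call in 5 settings, and Il1rap stays between -0.53 and -0.34 except at -0.18 with GC and length trends removed, where its call is lost.

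The balance between members was described as ratios of counts, without a test. Tnfrsf1b to Tnfrsf1a was 0.297 ± 0.0198 in sham and 0.345 ± 0.0316 in injured mice under saline, and 0.278 ± 0.0613 and 0.315 ± 0.0345 under DMI (SD, n = 4 each), with overlapping ranges of 0.278 to 0.325 and 0.318 to 0.385 in the saline groups. These ratios are not corrected for exon length and serve only to set the groups side by side. The ratio of the decoy Il1r2 to Il1r1 was 0.0545 ± 0.0203, 0.0459 ± 0.0202, 0.0527 ± 0.0144 and 0.0602 ± 0.0144 in the same order. The antagonist Il1rn to the sum of Il1a and Il1b ranged from 0.208 to 5 over single mice, and its spread within groups was too wide to order them.

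The genes that carry the signal from these receptors were counted by the same test, and values in brackets are log2 fold changes. Of 26 adaptors and kinases, 0 passed as higher and 2 as lower with injury under saline, where 5.85% and 6.18% of all genes passed as higher and lower. The 2 were Cflar (-0.2), which restrains caspase-8, and Tab3 (-0.28), which links TRAF6 to the kinase TAK1. With DMI in sham mice 3 passed as higher and 5 as lower, with Cflar (-0.27), Chuk (-0.24), Tab3 (-0.32), Rbck1 (0.19) and Map3k7 (-0.13) at the smallest p, where 11.6% and 11.9% of all genes passed as higher and lower (2475 and 2535 genes, or 4019 and 642 with GC and length trends removed). Tab3 (-0.31) was the 1 that passed with DMI after injury, and 0 passed with injury under DMI. Tollip, an inhibitory adaptor of the IL-1 receptor, was the most abundant at a mean of 184 CPM and passed in no comparison. Among 15 NF-kB subunits and inhibitors, Cyld, a deubiquitinase that limits NF-kB and the most abundant of them at 68.7 CPM, passed as lower with injury under saline (-0.22) and with DMI in sham mice (-0.12), and Rel passed as lower with DMI in sham mice (-0.42).

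Of 21 genes known to respond to NF-kB, 16 were tested. With injury under saline 8 passed as higher and 0 as lower, where 5.85% and 6.18% of all genes did. The median was 0.41 over the tested genes of the list and -0.001 over all genes. At the smallest p were Csf1 (0.54), a macrophage growth factor, Cxcl10 (1.99), a T cell chemokine, Gadd45b (0.38), Vcam1 (0.71), a leukocyte adhesion molecule, and Tnfaip2 (1). Mean Cxcl10 under saline was 3 CPM in sham and 12 CPM in injured mice, and mean Csf1 was 24.4 and 35.4 CPM. Csf1 (0.5) and Tnfaip2 (1.4) also passed as higher with injury under DMI, in separate mice, where 0.402% of all genes passed. With DMI after injury 0 of the 16 passed and the median was -0.2. The looser rule, given above for members lower with DMI in sham mice, was met there by 4 of the 16 as lower. These were Il6 (-1.48), Lcn2 (-1.05), Vcam1 (-0.54) and Socs3 (-0.33), and 0 met its counterpart as higher. The study also reports reduced Il6 in that comparison. Mean Il6 was low, at 0.358 CPM in SNI-Saline and 0.127 CPM in SNI-DMI mice. The share of all genes that met the looser rule with DMI after injury is not given here. With DMI in sham mice Ier3 (0.39) passed as higher, and Vcam1 (-0.5) and Lcn2 (-1.11), which neutrophils also make, as lower. There 11.6% of all genes passed as higher and 11.9% as lower. Sod2, the most abundant at 117 CPM, passed in no comparison. Macrophage markers rose in the same injury comparison, as given above, and their part in these genes was not tested.

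Among 12 genes of cytokine processing and shedding, Rhbdf1, a partner of ADAM17, passed as higher (0.25) and Furin, which activates proteases including ADAM17, as lower (-0.31) with injury under saline. With DMI in sham mice Adam10 (-0.39), a related sheddase, Furin (-0.24) and Erap1 (-0.36) passed as lower. Timp3, the tissue inhibitor of ADAM17, was the most abundant at 134 CPM and passed in no comparison. The other receptors of the TNF superfamily numbered 26, with 25 tested. Tnfrsf12a, the receptor for TWEAK, passed as higher with injury under saline (0.73, adjusted p = 0.0023 in edgeR) and under DMI (0.59, adjusted p = 0.0347), Tnfrsf11a passed as lower with injury under saline (-0.32), Eda2r as lower with DMI after injury (-1.63) and Tnfrsf14 as lower with DMI in sham mice (-0.76). Ngfr, the low-affinity neurotrophin receptor, had the highest level of them, 805 CPM, and passed in none. Mean Eda2r was low, at 0.412 CPM in SNI-Saline and 0.132 CPM in SNI-DMI mice. Of all genes, 12.0% passed with injury under saline and 0.402% with injury under DMI. The shares with DMI were 23.4% in sham mice and 2.93% after injury.

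Of the 17 other TNF superfamily ligands, 9 were tested. Fasl passed as lower with injury under saline (-1.51) and with DMI in sham mice (-1.36). Its mean was low, at 0.202 CPM in Sham-Saline, 0.0714 in SNI-Saline and 0.0722 in Sham-DMI mice. Tnfsf10, which encodes TRAIL, passed as lower with DMI in sham mice (-1). Eda was the most abundant at 10.8 CPM and passed in none. In the wider IL-1 family, 10 of 15 genes were tested. Il1rl2, the IL-36 receptor, passed as higher with injury under saline (0.65), and Il1rapl1, a neuronal synaptic relative of Il1rap, as lower with injury under saline (-0.64) and with DMI in sham mice (-0.77). Il18rap passed as lower with DMI in sham mice (-1.34), with means of 0.545 CPM in Sham-Saline and 0.212 CPM in Sham-DMI mice. Il33, the alarmin of the family, was the most abundant at 6.78 CPM and passed in none. Of all genes, 12.0% passed with injury under saline and 23.4% with DMI in sham mice. For the difference between the DMI effects, 0 genes of these lists passed, beside 0% of all genes.

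For each tested member, the genes with the most similar profile over the 16 libraries were sought among 15750 genes with a mean of at least 1 CPM, as a description with no test. The points share group, library and depth. Il1rap had the closest profiles, those of Aspa (Pearson r = 0.95, Spearman rho = 0.91), Frem1 (0.93, 0.86) and Mtcp1 (0.92, 0.93). Tnfrsf1b was most like Crybg1 (0.9, 0.88), Slfn9 (0.89, 0.87) and Xdh (0.89, 0.82). Tnfrsf1a was most like Phlda1 (0.91, 0.93), Ehd4 (0.87, 0.84) and Ltbr (0.86, 0.88), the lymphotoxin beta receptor. Adam17 was most like Ednrb (0.9, 0.66), Clic4 (0.89, 0.8) and Gjc3 (0.89, 0.76), with rank correlations below r. Il1r1 was most like Sorcs2 (0.83, 0.82), Ankrd33b (0.81, 0.79) and Ahcy (0.78, 0.76), and Il1r2 like Dhrs11 (0.82, 0.83), Pgap3 (0.8, 0.84) and Gpr19 (0.8, 0.81). At the low counts of the remaining members, Tnf was most like Ptpn18 (0.86, 0.9) and Nuak2 (0.86, 0.88), Il1b like Hmcn2 (0.86, 0.78), Slc12a3 (0.84, 0.82) and Gm26559 (0.8, 0.75), and Il1rn like Il34 (0.78, 0.81), Nr4a1 (0.77, 0.74) and Birc5 (0.76, 0.74).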

How the data were processed

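RNA was isolated from frozen DRGs of 16 mice and made into libraries with a stranded mRNA kit. Reads were aligned by the authors to mm10, and they deposited whole-number counts per Ensembl gene for each mouse. Their processing notes name HISAT2, HTSeq and DESeq2. The use of strand in counting is not given in the sources used here. Lines for reads not assigned to a gene, 18.83% to 20.44% of a library, were left out. Depth was 41194238 to 73920332 counts on genes.

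The fit was made with edgeR 4.0.16 (R 4.3.3): filterByExpr (21371 genes kept), TMM scaling and glmQLFit on all 16 libraries with 1 coefficient per group. P-values were adjusted by the Benjamini-Hochberg method over all genes tested, with a threshold of 0.1. CPM values are TMM-scaled. Il1a was tested by exact permutation on log2 CPM (prior count 2). DESeq2 1.42.0, other filters and scalings, a replicate block, removal of GC and length trends (mgcv 1.9.3) and each library left out were alternatives. Scripts were tested on simulated data. Coordinates come from GENCODE M21 and promoters from RefSeq. All 10 members were named, with the genes of each pathway list that passed (at most 5 per comparison) and its most abundant gene. Of the 3 genes with the most similar profile to each member, 1 is not reported here. Members and lists were chosen with earlier results of these data known. Each library is a separate mouse, and replicate pairs differed far more than counting error, with a chi-square per gene of 10.38 to 44.28.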

Additional observations from a re-analysis of the deposited data

Results flagged for a closer look

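Adam17 in Sham-DMI mouse 1 was 20.3 CPM, where the other 3 mice of the group had 27.4 to 28.1 CPM, a gap large for the range of 4 samples by Dixon's criterion. Of the 40 groups examined (10 members in 4 groups) this was 1, and chance gives about 1 in 20, or 2. In the same mouse Il1rap was also the lowest of its group, at 6.87 CPM. Without that mouse the change of Adam17 with DMI in sham mice was -0.02, the upper end of the range over left-out libraries.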

How the results depend on the processing

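Among the members, 320 of 334 values under alternatives that kept all libraries compared kept their direction and side of the threshold, as did 674 of 720 with 1 library left out. With GC and length trends removed, 0 members passed with injury under saline or with DMI in sham mice. Leaving out 1 library gave 0 to 1 members with injury under saline and 1 to 2 with DMI in sham mice. In the remaining comparisons 0 members passed in any setting. Signs turned only for values that did not pass. With GC and length trends removed, Il1rap was 0.14 with injury under saline, Tnfrsf1a -0.013, Il1r1 0.08 and Adam17 0.049 with DMI after injury, and Adam17 0.024 with DMI in sham mice. Il1r2 with DMI in sham mice was 0.003 with no low-count filter, 0.002 with upper-quartile scaling, 0.008 with median-of-ratios size factors, 0.01 in DESeq2, 0.013 with the libraries of the groups compared and 0.013 with GC and length trends removed.

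Over the left-out libraries the log2 fold change ran from -0.14 to 0.56 for Il1b, -0.35 to 0.08 for Il1r2 and -0.11 to 0.031 for Il1rap with injury under saline. With DMI after injury it ran from -0.15 to 0.013 for Adam17, -0.1 to 0.026 for Il1r1, -0.18 to 0.77 for Il1rn and -0.032 to 0.13 for Tnfrsf1a. With DMI in sham mice it ran from -0.014 to 0.1 for Il1r1, -0.17 to 0.16 for Il1r2, -0.012 to 0.11 for Tnfrsf1a and -0.13 to 0.004 for Tnfrsf1b. For the difference between DMI effects it ran from -0.033 to 0.15 for Adam17, -0.68 to 0.29 for Il1rn, -0.35 to 0.84 for Tnf, -0.095 to 0.085 for Tnfrsf1a and -0.12 to 0.042 for Tnfrsf1b.

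The genes called in all, 2571 with injury under saline, 626 with DMI after injury, 5010 with DMI in sham mice and 86 with injury under DMI, moved with the setting. With trends removed they were 1013, 187, 4661 and 172, with 4019 higher and 642 lower for DMI in sham mice against 2475 and 2535, 167 and 20 for DMI after injury against 282 and 344, 612 and 401 for injury under saline against 1250 and 1321, and 93 and 79 for injury under DMI against 80 and 6. DESeq2 called 1843 with DMI after injury, 505 with injury under DMI and 16 for the difference between DMI effects. With the groups compared alone 1812 and 9 passed in the first and second of these, and without a low-count filter 310 passed with injury under DMI. Leaving out 1 library gave 682 to 3286, 0 to 1842, 3286 to 6094 and 17 to 850 genes in the order above. The cause was not tested. Replicate numbers showed no sign of pairing in the medians. Deviations of same-numbered mice correlated at -0.081 to 0.184 (median 0, 24 pairs of libraries). Those of differently numbered mice correlated at -0.248 to 0.169 (median 0.002, 72 pairs). With the replicate number as a block no member changed its call, Il1r2 with DMI in sham mice was 0.019, and 172 genes passed with DMI after injury. Depth limits the ligands and Il1rn, at 0 to 44 counts per library.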
